A study of Homo sapiens with 9 samples.

Results

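Interferon-stimulated genes are the genes that a cell switches on when an interferon binds its receptor, and they encode sensors, transcription factors and effectors that act against viruses. A list of 49 of them was followed through the 9 libraries by matching the Ensembl identifiers of the count files to gene symbols. All 49 were found among the 57500 genes counted. The cells were BJAB, a human B-cell line whose labels give it as a Burkitt lymphoma, left untreated and held in resting culture. TACI (gene TNFRSF13B) is the B-cell receptor for the cytokines BAFF and APRIL, and it exists as a short and a long isoform. There were 3 libraries of BJAB given the short isoform, 3 of BJAB given the long isoform and 3 of parental BJAB. The titles call the introduced lines stable transfections and the series text speaks of transduction; no empty-vector line was analysed here, and neither the promoter nor the number of clones behind each line is given. Polyadenylated RNA came from sorted cells. Nothing says whether the 3 replicates of a group were separate cultures, so the p-values cover the spread among these libraries alone, and that spread may be technical only.

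Interferons of type I, II and III bind separate receptors whose attached JAK kinases phosphorylate STAT proteins. STAT2 and IRF9 are parts of the complex ISGF3, which binds interferon-stimulated response elements, while STAT dimers bind gamma-activated sites. Several of the same genes also respond directly to IRF1 or to NF-kB, the factor family that TACI is known to activate in B cells.

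The libraries held 40322136 to 50079203 counts. Introduced TNFRSF13B was at 2655 to 2965 CPM (the gene's count scaled to its library's total) in TACI short, 691 to 738 CPM in TACI long and 14.6 to 28.8 CPM in parental libraries. Isoform, TNFRSF13B level and line thus differed together between the introduced lines and cannot be told apart. The 8 B-cell markers were detected in every library, with summed levels of 3065 to 3200 CPM in TACI short, 3403 to 3436 CPM in TACI long and 3775 to 3899 CPM in parental libraries. TACI short replicates 2 and 3 stood apart from the other 7 libraries, with 32882 and 32209 genes detected against 24307 to 25938. They also held more RNA of 18 myeloid markers. Their sums were 134 and 130 CPM in TACI short replicates 2 and 3, 31.8 CPM in TACI short replicate 1, 16.8 to 31.3 CPM in TACI long and 16.4 to 27.6 CPM in parental libraries. C1QB, C1QC and S100A8 were at 0 in all 9 libraries, and 3 to 7 of the 18 markers were at 0 in each. The 9 T and NK cell markers summed to 24.8 to 29.2 CPM in TACI short, 14.7 to 16.3 CPM in TACI long and 53.0 to 56.6 CPM in parental libraries. The 8 epithelial and fibroblast markers summed to 83.3 to 91.5, 114 to 120 and 101 to 103 CPM in the same order of groups. In bulk RNA, more cells of a type and more RNA per cell cannot be told apart. What these transcripts contributed to the results below was not tested, and where a call in TACI short against parental changed with replicate 1 alone or with replicates 2 and 3 alone, the value of the fit that changed it is given beside the gene.

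In TACI short cells, the interferon-stimulated genes did not move as a block. The sensor genes IFIH1 and DHX58, the transcription factor genes IRF1, IRF2, IRF7 and STAT2, and PARP9, DTX3L and PARP14 rose, while ISG15, TRIM25, TRIM21, IFIT1, IFIT5, CMPK2, ISG20, MX1 and SAMD9 fell. In TACI long cells CMPK2, ISG20, ISG15, TRIM25 and MX1 rose and PARP9, DTX3L and PARP14 fell, relative to the same parental libraries, which both comparisons share. Of the 49 genes, 43 passed the filter on low counts; IFITM1, GBP4, GBP5, HERC5, ZBP1 and XAF1 did not and were not tested. The tests were edgeR's quasi-likelihood test with Benjamini-Hochberg adjustment over all 16672 genes tested, and a gene was called at an adjusted p under 0.05.

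In TACI short against parental, 23 of the 43 tested members (53.5%) were higher, against 31.5% of all genes tested, and 9 (20.9%) were lower, against 31.1% of all genes. The median log2 fold change was 0.44 over the members and 0.03 over all genes tested. At a change of at least 2-fold, 7 members (16.3%) were higher and 2 (4.65%) were lower, against 11.8% and 2.64% of all genes, so the large changes were not far from the background. Scaled by library totals alone, 6873 genes were higher and 3771 lower, against 5256 and 5179 with TMM factors, and the members then counted 25 higher and 8 lower.

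In TACI long against parental, 13 members (30.2%) were higher, against 25.2% of all genes, and 11 (25.6%) were lower, against 25.9%. These shares are close to the background and are no result about the list as a whole. The median log2 fold change was -0.01 over the members and -0.00 over all genes. At 2-fold or more, 3 members (6.98%) were higher and 1 (2.33%) was lower, against 3.12% and 5.99% of all genes.

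In TACI short against TACI long, which does not use the parental libraries as its reference, 21 members (48.8%) were higher, against 35.2% of all genes, and 11 (25.6%) were lower, against 33.6%. The median log2 fold change was 0.49 over the members and 0.05 over all genes. At 2-fold or more, 8 members (18.6%) were higher and 5 (11.6%) were lower, against 16.1% and 3.84% of all genes. With library totals alone, 7216 genes were higher and 4345 lower, against 5870 and 5604 with TMM factors, and the members counted 24 and 9.

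**Figure D1:**
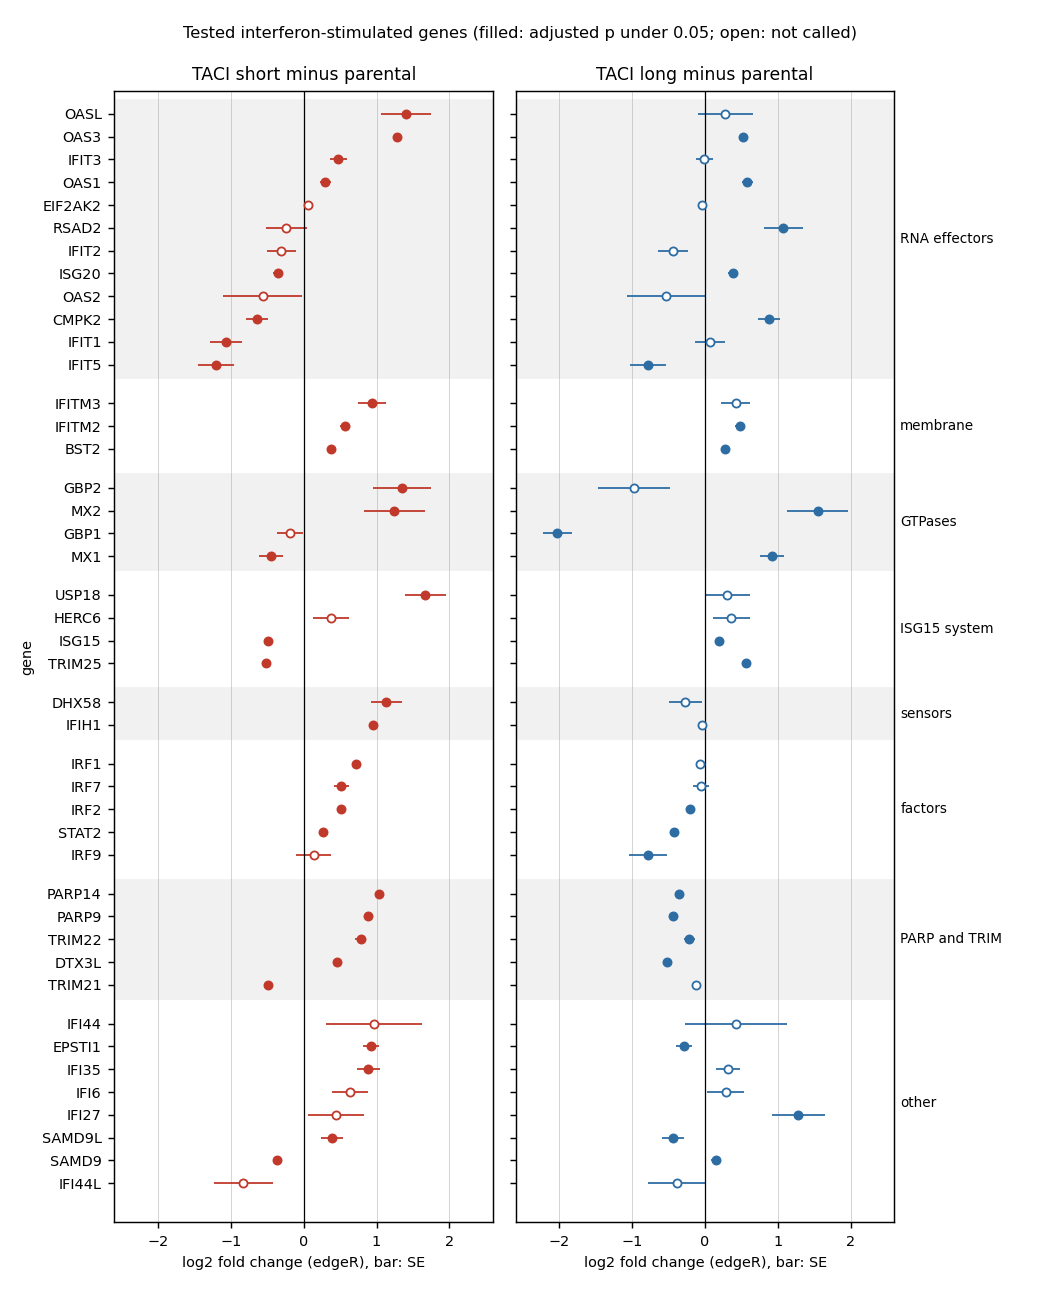
Fitted log2 fold change of each tested interferon-stimulated gene, by role, for TACI short minus parental (left, red) and TACI long minus parental (right, blue). Bars are approximate standard errors from 3 libraries a group, and filled points had an adjusted p under 0.05. Both panels use the same 3 parental libraries; PARP14, PARP9 and DTX3L lie right of 0 at left and left of 0 at right, and CMPK2, TRIM25 and ISG15 do the reverse.

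The ligands themselves were almost absent. The 21 type I, II and III interferon genes listed had summed counts of 3, 11 and 7 in TACI short libraries, 1, 0 and 0 in TACI long libraries and 2, 1 and 0 in parental libraries. The sums of 11 and 7 were in TACI short replicates 2 and 3, the libraries with the most genes detected (32882 and 32209). No ligand gene had more than 2 counts in any library, and none passed the filter. Counts this low do not exclude expression below the depth of the libraries.

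Of 6 receptor subunit genes, 3 rose (50%) and 1 fell (16.7%) in TACI short, against 31.5% and 31.1% of all genes, and none rose and 2 fell (33.3%) in TACI long, against 25.2% and 25.9%. IFNGR2, the signalling chain of the interferon gamma receptor, had 101, 117 and 122 CPM in TACI short libraries, 54.6, 55.9 and 51.0 CPM in TACI long libraries and 55.8, 56.6 and 56.3 CPM in parental libraries. All TACI short libraries were above all others. Its log2 fold change was 0.88 ± 0.05 (SE) in TACI short, with an adjusted p of 6.38e-13, and -0.06 ± 0.05 in TACI long, which was not called. IFNAR2, a chain of the type I receptor, rose by 0.47 ± 0.05 in TACI short, and IL10RB, which the type III receptor shares with the receptor of interleukin 10, rose by 1.00 ± 0.15. The TACI short libraries had 6.57, 9.82 and 9.90 CPM of IL10RB, with replicate 1 the lowest, against 3.54 to 4.59 CPM in parental libraries. IFNLR1, the other chain of the type III receptor, fell in both lines, by 1.07 ± 0.09 on the log2 scale in TACI short and by 0.37 ± 0.09 in TACI long. IFNAR1 and IFNGR1 had log2 fold changes of -0.03 ± 0.04 and -0.01 ± 0.06 in TACI short and were not called there. With TACI short replicate 1 alone IFNGR1 was lower by 0.19 ± 0.06 (adjusted p = 0.00607), and with replicates 2 and 3 its value was 0.07 ± 0.05 and not called. IFNGR1 fell by 0.20 ± 0.06 in TACI long.

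Among the JAK kinases, JAK2 and TYK2 rose in TACI short, and TYK2 and JAK1 fell in TACI long. JAK2 had 5.87, 7.49 and 6.99 CPM in TACI short libraries, 2.51, 3.05 and 2.41 CPM in TACI long libraries and 2.61, 2.96 and 2.98 CPM in parental libraries. The TACI short libraries were the highest, and the other groups overlapped. The log2 fold change of JAK2 in TACI short was 1.12 ± 0.12 (adjusted p = 3.79e-08). TYK2 rose by 0.28 ± 0.05 in TACI short and fell by 0.23 ± 0.05 in TACI long. JAK1 had a log2 fold change of 0.09 ± 0.04 in TACI short, which was not called, and fell by 0.18 ± 0.04 in TACI long. With TACI short replicate 1 alone JAK1 was higher by 0.16 ± 0.05 (adjusted p = 0.00522), and with replicates 2 and 3 it was at 0.05 ± 0.04 and not called.

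Of 5 listed inhibitors of receptor signalling, 2 rose and 1 fell in TACI short, and 2 rose and 1 fell in TACI long (40% and 20% in each line, against 31.5% and 31.1% of all genes in TACI short and 25.2% and 25.9% in TACI long). SOCS1, which binds and blocks JAK kinases and is itself induced by interferons, had 25.4, 22.9 and 22.8 CPM in TACI short libraries, 10.7, 10.6 and 11.1 CPM in TACI long libraries and 9.0, 7.99 and 8.89 CPM in parental libraries. It rose by 1.33 ± 0.07 in TACI short (adjusted p = 3.28e-13) and by 0.32 ± 0.08 in TACI long. SOCS3 was near the detection limit, at 0.240 to 0.496 CPM in TACI short, 0 to 0.0473 CPM in TACI long and 0.0652 to 0.115 CPM in parental libraries. It rose by 1.73 ± 0.52 in TACI short (adjusted p = 0.00587) and was not called in TACI long (adjusted p = 0.0572). PTPN6, the phosphatase SHP-1, had 490 to 509 CPM in TACI short, 194 to 195 CPM in TACI long and 536 to 570 CPM in parental libraries. It fell by 1.5 ± 0.05 in TACI long and by 0.28 ± 0.04 in TACI short. PIAS1, which inhibits STAT proteins, had a log2 fold change of 0.07 ± 0.04 in TACI short, not called, and rose by 0.14 ± 0.04 in TACI long. PTPN2, a phosphatase of JAK and STAT proteins, was at 0.03 ± 0.04 and 0.08 ± 0.04 in the same order and was called in neither.

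Of 14 genes of nucleic acid sensing upstream of interferon, 11 were tested. In TACI short 3 rose (27.3%) and 4 fell (36.4%), near the 31.5% and 31.1% of all genes, and in TACI long 5 rose (45.5%) and 3 fell (27.3%), against 25.2% and 25.9%. IRF5 rose by 0.90 ± 0.10 in TACI short and fell by 0.32 ± 0.10 in TACI long, and IKBKE, a kinase that phosphorylates IRF3 and IRF7, rose by 0.72 ± 0.05 and 0.64 ± 0.05 in the same order of lines. TMEM173, the DNA-sensing adaptor STING, had 0.0900, 1.49 and 1.54 CPM in TACI short libraries, again lowest in replicate 1, against 0.139 to 0.285 CPM in TACI long and 0.0870 to 0.279 CPM in parental libraries. With all 3 TACI short libraries TMEM173 was not called (adjusted p = 0.0661), and with replicates 2 and 3 it was higher by 2.93 ± 0.34 (adjusted p = 2.87e-09). CGAS, at 0.0675, 0.744 and 0.419 CPM in TACI short libraries, passed the filter only once replicate 1 was left out. It was then higher than parental by 2.63 ± 0.50 (adjusted p = 2.21e-05). TLR9, a sensor of DNA in endosomes, was not called with all 3 libraries (-0.53 ± 0.37) and was lower by 0.92 ± 0.40 with replicates 2 and 3 (adjusted p = 0.0447). Of the TLR9 exon bases, 86.3% also belong to another annotated gene on the same strand, so its counts may understate it. ADAR, an editor of double-stranded RNA, fell by 0.10 ± 0.04 with all 3 (adjusted p = 0.0393) and was at -0.06 ± 0.05 and not called with replicate 1 alone.

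All 5 listed transcription factors were higher in TACI short than in TACI long (100%, against 35.2% of all genes). Relative to parental 4 of 5 rose (80%, against 31.5% of all genes). IRF1, an activator of interferon and of its target genes, had 49.8, 51.0 and 48.2 CPM in TACI short libraries, 25.9, 26.3 and 26.4 CPM in TACI long libraries and 27.2, 27.9 and 27.8 CPM in parental libraries. The TACI short values lay well above both other groups. The log2 fold change in TACI short was 0.72 ± 0.05 (adjusted p = 3.85e-12), and in TACI long it was -0.08 ± 0.05 and not called. IRF2, which binds the same elements as IRF1 and can oppose it, averaged 57.5 ± 0.970 CPM in TACI short, 31.97 ± 0.257 CPM in TACI long and 36.9 ± 0.445 CPM in parental libraries (SD, n = 3 each). It rose by 0.51 ± 0.04 in TACI short and fell by 0.20 ± 0.05 in TACI long. IRF7, the main inducer of type I interferon genes, averaged 7.53 ± 0.227, 4.63 ± 0.257 and 4.81 ± 0.576 CPM in TACI short, TACI long and parental libraries (SD, n = 3 each), and rose by 0.52 ± 0.10 in TACI short.

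STAT2 had 37.6, 41.1 and 37.4 CPM in TACI short libraries, 20.6, 22.2 and 22.7 CPM in TACI long libraries and 28.8, 30.1 and 29.2 CPM in parental libraries, with no overlap between groups. It rose by 0.27 ± 0.05 in TACI short and fell by 0.43 ± 0.05 in TACI long (adjusted p = 2.26e-07). IRF9, the partner of STAT2, was low, at 0.923 to 1.09 CPM in TACI short, 0.417 to 0.548 CPM in TACI long and 0.652 to 1.01 CPM in parental libraries. It fell by 0.79 ± 0.26 in TACI long (adjusted p = 0.0132), and that call was lost without parental replicate 2 (log2 fold change -0.62, adjusted p = 0.0973) and without TACI long replicate 3 (-0.71, adjusted p = 0.0577). It was also lost in DESeq2 (adjusted p = 0.0780). Of the IRF9 exon bases, 48.4% also belong to another annotated gene on the same strand, so its counts may understate it.

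Both RNA sensors that were members and could be tested rose in TACI short (100%, against 31.5% of all genes). IFIH1, which encodes the double-stranded RNA sensor MDA5, had 62.5, 61.3 and 62.6 CPM in TACI short libraries, 29.5, 27.7 and 28.0 CPM in TACI long libraries and 28.2, 29.8 and 30.0 CPM in parental libraries. TACI short libraries were all above the others, while TACI long and parental libraries overlapped. The log2 fold change was 0.96 ± 0.05 in TACI short (adjusted p = 6.75e-14) and -0.04 ± 0.05 in TACI long. DHX58, which encodes LGP2, a relative of MDA5 that modulates it, had 1.64, 1.98 and 1.90 CPM in TACI short, 0.685, 0.658 and 0.556 CPM in TACI long and 0.674, 0.918 and 0.707 CPM in parental libraries. It rose by 1.13 ± 0.21 in TACI short (adjusted p = 6.15e-05). The third sensor, RIG-I (DDX58), which was not on the list of members, had log2 fold changes of 0.14 ± 0.13 in TACI short and 0.22 ± 0.13 in TACI long and was called in neither. ZBP1, a sensor of nucleic acids in the Z form, was untested at 0.0200 to 0.223 CPM in TACI short and 0 to 0.110 CPM elsewhere.

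The TACI short and TACI long lines differed in direction at 3 neighbouring genes, PARP9, DTX3L and PARP14, at chr3:122527924-122730840 in hg38. PARP9 and DTX3L encode partners in a ubiquitin ligase that ADP-ribosylates ubiquitin, and PARP14 encodes a mono-ADP-ribosyltransferase. PARP14 had 202, 207 and 190 CPM in TACI short libraries, 64.0, 72.9 and 71.9 CPM in TACI long libraries and 85.6, 91.7 and 89.5 CPM in parental libraries. PARP9 had 145, 139 and 141 CPM in TACI short libraries, 52.7, 54.5 and 48.8 CPM in TACI long libraries and 69.8, 72.6 and 69.3 CPM in parental libraries. DTX3L had 154, 147 and 144 CPM in TACI short libraries, 68.2, 68.6 and 68.9 CPM in TACI long libraries and 98.7, 102 and 95.2 CPM in parental libraries. For each gene the 3 groups were fully separate, with TACI short highest and TACI long lowest, and TACI short replicate 1 lay with replicates 2 and 3. Relative to parental the log2 fold changes in TACI short were 1.04 ± 0.05 for PARP14, 0.88 ± 0.05 for PARP9 and 0.46 ± 0.05 for DTX3L (adjusted p = 1.49e-14, 1.76e-13 and 5.90e-09). In TACI long they were -0.35 ± 0.05, -0.44 ± 0.05 and -0.52 ± 0.05 (adjusted p = 2.23e-06, 5.57e-08 and 1.56e-09). In the direct comparison TACI short exceeded TACI long by 1.39 ± 0.05, 1.32 ± 0.05 and 0.99 ± 0.05, and the adjusted p of PARP14 and PARP9 (4.04e-17 and 6.75e-17) were the lowest of the 43 tested members.

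**Figure D2:**
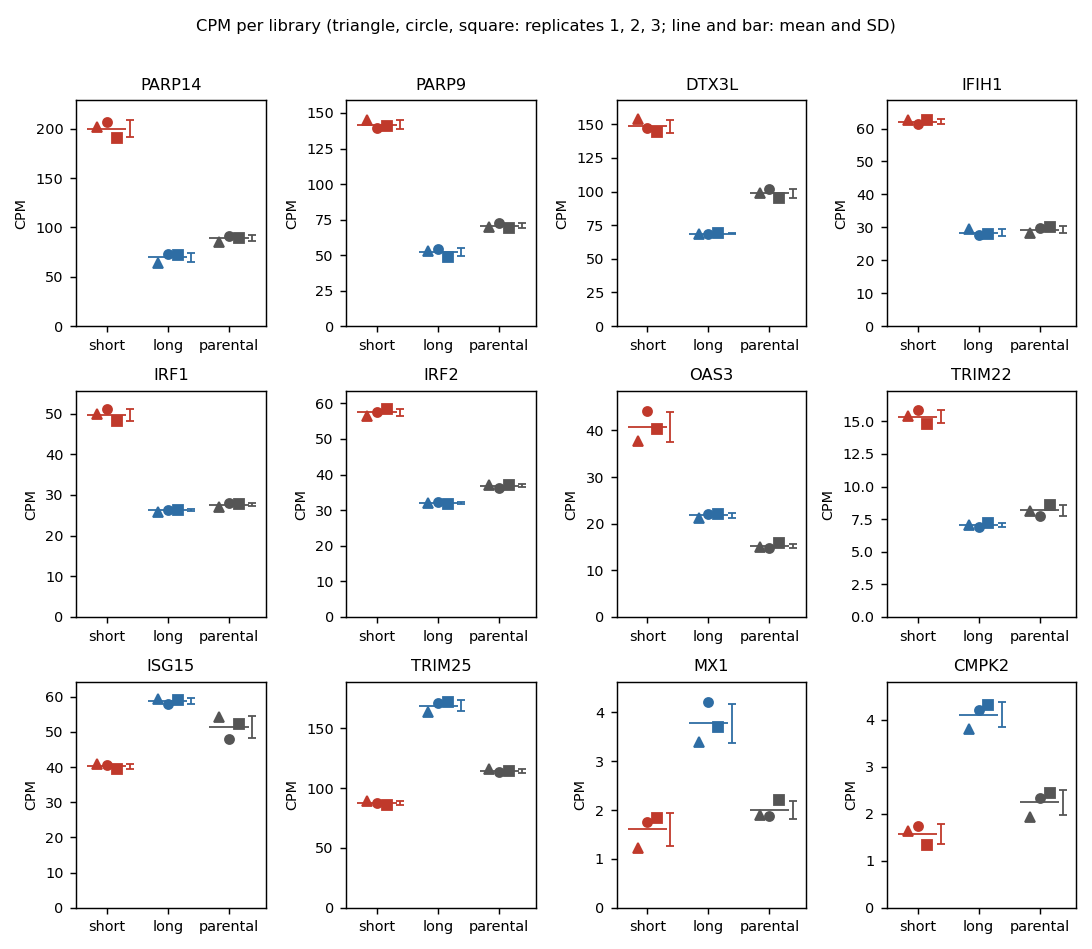
Level in CPM (linear axis from 0) of 12 interferon-stimulated genes in each library of TACI short (red), TACI long (blue) and parental (grey) cells, with the mean and SD of each group of 3. PARP14, PARP9, DTX3L, IFIH1, IRF1, IRF2, OAS3 and TRIM22 are highest in TACI short, whereas ISG15, TRIM25, MX1 and CMPK2 are highest in TACI long.

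PARP9 and DTX3L are transcribed away from each other, and the annotated RefSeq starts lie 38 bases apart, at positions 122564300 and 122564338 of chromosome 3. The PARP9 stretch shown covers the bases between them, reaches a short way into the first exon of DTX3L and ends at the base before the PARP9 start; the PARP14 stretch is the 250 bases before its start. They are shown because these genes moved together and because each holds a match to the core of an interferon-stimulated response element, searched as GAAANNGAAA on both strands. Sequences are from RefSeq on GRCh38.p14, 5′ to 3′ on the strand of the gene, for PARP9 at chr3:122564301-122564360, minus strand and for PARP14 at chr3:122680589-122680838, plus strand. Capitals mark the motif matches, which in PARP14 include a gamma-activated-site core, TTCNNNGAA, next to the response element.
PARP9: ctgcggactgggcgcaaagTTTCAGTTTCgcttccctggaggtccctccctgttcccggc
PARP14: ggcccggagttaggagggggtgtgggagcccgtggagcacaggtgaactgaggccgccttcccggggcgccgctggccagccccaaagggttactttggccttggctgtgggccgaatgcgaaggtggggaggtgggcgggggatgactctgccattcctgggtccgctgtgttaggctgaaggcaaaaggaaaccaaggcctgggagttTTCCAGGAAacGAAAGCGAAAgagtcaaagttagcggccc
The match in the PARP9 stretch lies at 122564332 to 122564341, across the DTX3L start, and its last bases are in the first exon of DTX3L. The same bases count as a match in the windows of both genes. A match describes the letters only and does not show binding.

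TRIM22 and TRIM21 encode ubiquitin ligases with antiviral roles, and they differed in direction. TRIM22 had 15.4, 15.9 and 14.8 CPM in TACI short libraries, 7.02, 6.89 and 7.21 CPM in TACI long libraries and 8.15, 7.76 and 8.62 CPM in parental libraries. It rose by 0.78 ± 0.07 in TACI short (adjusted p = 3.01e-09). It fell by only 0.22 ± 0.08 in TACI long (adjusted p = 0.0212), a call lost without parental replicate 1 or 3 or TACI long replicate 1 or 2 (log2 fold changes -0.21, -0.18, -0.22 and -0.18) and in DESeq2 (adjusted p = 0.113). TRIM21, a receptor in the cytosol for antibody-coated virus, averaged 17.3 ± 1.12, 20.5 ± 0.618 and 22.2 ± 0.936 CPM in TACI short, TACI long and parental libraries (SD, n = 3 each). It fell by 0.49 ± 0.06 in TACI short, and its log2 fold change in TACI long was -0.12 ± 0.06 and not called.

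In the ISG15 system, the modifier and its protease moved in opposite directions in TACI short. ISG15, a small protein that is attached to other proteins, had 40.8, 40.5 and 39.4 CPM in TACI short libraries, 59.4, 57.9 and 59.0 CPM in TACI long libraries and 54.2, 48.1 and 52.3 CPM in parental libraries. It was lowest in every TACI short library, and TACI long lay above parental without overlap. The log2 fold change was -0.49 ± 0.05 in TACI short (adjusted p = 2.04e-08) and 0.19 ± 0.05 in TACI long (adjusted p = 0.00309). Without parental replicate 2 the TACI long value was 0.14 and not called (adjusted p = 0.0682). USP18, which removes ISG15 and also dampens signalling at the type I receptor, had 0.990, 1.22 and 1.12 CPM in TACI short, 0.449, 0.285 and 0.440 CPM in TACI long and 0.261, 0.367 and 0.321 CPM in parental libraries. It rose by 1.67 ± 0.28 in TACI short (adjusted p = 1.82e-05) from a low level, and TACI long, at 0.31 ± 0.31, was not called.

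TRIM25, a ubiquitin ligase that acts on RIG-I, had 89.3, 87.3 and 85.9 CPM in TACI short libraries, 164, 171 and 172 CPM in TACI long libraries and 116, 113 and 114 CPM in parental libraries. The groups were fully separate, in the reverse order of the PARP9 group. The log2 fold change was -0.52 ± 0.04 in TACI short (adjusted p = 4.40e-10) and 0.56 ± 0.04 in TACI long (adjusted p = 1.37e-10). HERC6, a relative of the human ISG15 ligase HERC5, averaged 1.21 ± 0.288, 1.09 ± 0.230 and 0.857 ± 0.259 CPM in TACI short, TACI long and parental libraries (SD, n = 3 each) and was not called. HERC5 was too low to test, at 0.113 to 0.397 CPM in TACI short, 0.0464 to 0.142 CPM in TACI long and 0 to 0.0689 CPM in parental libraries.

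Of the 12 genes for effectors against viral RNA, 4 rose (33.3%), 4 fell (33.3%) and 4 were not called in TACI short, close to the 31.5% and 31.1% of all genes. In TACI long 5 rose (41.7%) and 1 fell (8.33%), against 25.2% and 25.9%. OAS3, which makes the messenger that activates RNase L, had 37.8, 44.2 and 40.3 CPM in TACI short libraries, 21.2, 22.2 and 21.97 CPM in TACI long libraries and 15.1, 14.9 and 15.8 CPM in parental libraries. The groups did not overlap. It had the lowest adjusted p of all members in TACI short against parental, with log2 fold changes of 1.29 ± 0.05 in TACI short (adjusted p = 1.72e-15) and 0.51 ± 0.05 in TACI long (adjusted p = 3.18e-08). Its neighbour OAS1 averaged 10.99 ± 0.904, 12.2 ± 0.421 and 8.18 ± 0.633 CPM in TACI short, TACI long and parental libraries (SD, n = 3 each). OAS1 rose by 0.30 ± 0.08 in TACI short and by 0.58 ± 0.08 in TACI long; with replicate 1 as the only TACI short library, the first value was 0.22 and not called (adjusted p = 0.0650). OASL, a relative without that enzyme activity, was at 0.518, 1.09 and 0.779 CPM in TACI short, 0.307, 0.285 and 0.394 CPM in TACI long and 0.239, 0.184 and 0.386 CPM in parental libraries. It rose by 1.41 ± 0.35 in TACI short (adjusted p = 0.00119), but with replicate 1 as the only TACI short library the value was 0.84 ± 0.49 and not called. Against TACI long it was 1.13 ± 0.34 higher, and that call was lost without TACI short replicate 2 (0.87, adjusted p = 0.0557).

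The 4 IFIT genes, neighbours at chr10:89283694-89421001, encode proteins that bind viral RNA or the initiation machinery of translation, and they did not share a direction. IFIT1 had 0.563, 1.02 and 1.22 CPM in TACI short libraries, 1.65, 1.75 and 2.22 CPM in TACI long libraries and 1.85, 1.79 and 1.74 CPM in parental libraries. All TACI short libraries were below the others. IFIT1 fell by 1.07 ± 0.22 in TACI short (adjusted p = 0.000203); the value was -1.76 ± 0.30 with replicate 1 alone and -0.82 ± 0.20 with replicates 2 and 3. IFIT5 had 0.518, 0.868 and 0.819 CPM in TACI short, 0.827, 0.636 and 1.23 CPM in TACI long and 1.63, 1.40 and 1.61 CPM in parental libraries. It fell by 1.20 ± 0.25 in TACI short (adjusted p = 0.000212), with -1.66 ± 0.35 for replicate 1 alone and -1.03 ± 0.24 for replicates 2 and 3, and by 0.78 ± 0.25 in TACI long (adjusted p = 0.0101), where the call was lost without TACI long replicate 2 (-0.57, adjusted p = 0.0807). IFIT3 rose in TACI short, with 4.91, 5.46 and 4.73 CPM against 3.35, 3.19 and 3.36 CPM in parental libraries and a log2 fold change of 0.48 ± 0.11. IFIT2 averaged 1.41 ± 0.0470, 1.17 ± 0.0760 and 1.60 ± 0.420 CPM in TACI short, TACI long and parental libraries (SD, n = 3 each) and was not called. Without parental replicate 2, which had the lowest parental level, its log2 fold changes were -0.53 (adjusted p = 0.0328) in TACI short and -0.65 (adjusted p = 0.0134) in TACI long.

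RSAD2 and CMPK2, neighbours at chr2:6840570-6898239, encode viperin, which makes a chain-terminating nucleotide, and the nucleotide kinase thought to supply it. CMPK2 had 1.64, 1.74 and 1.34 CPM in TACI short libraries, 3.80, 4.21 and 4.31 CPM in TACI long libraries and 1.93, 2.34 and 2.44 CPM in parental libraries. RSAD2 had 0.315, 0.570 and 0.779 CPM in TACI short libraries, 1.30, 1.21 and 1.30 CPM in TACI long libraries and 0.652, 0.528 and 0.622 CPM in parental libraries. Both were highest in TACI long, without overlap with either other group. CMPK2 rose by 0.88 ± 0.15 in TACI long (adjusted p = 2.33e-05) and fell by 0.64 ± 0.15 in TACI short (adjusted p = 0.000877). RSAD2 rose by 1.07 ± 0.27 in TACI long (adjusted p = 0.00164), and its value in TACI short, -0.24 ± 0.28, was not called. With TACI short replicate 1 alone RSAD2 was lower than parental by 1.02 ± 0.41 (adjusted p = 0.0394), and with replicates 2 and 3 the value was 0.03 ± 0.28 and not called. TACI short was 1.52 ± 0.15 below TACI long for CMPK2 and 1.31 ± 0.27 below it for RSAD2 on the log2 scale; for RSAD2 that difference was -2.10 with replicate 1 alone and -1.05 with replicates 2 and 3.

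ISG20, an RNA exonuclease, averaged 12.0 ± 0.312, 18.3 ± 0.255 and 14.1 ± 0.249 CPM in TACI short, TACI long and parental libraries (SD, n = 3 each). It fell by 0.36 ± 0.06 in TACI short and rose by 0.38 ± 0.06 in TACI long. EIF2AK2, the kinase PKR that stops translation when it binds double-stranded RNA, averaged 48.5 ± 1.46, 41.3 ± 1.93 and 42.4 ± 0.846 CPM in the same order, and its log2 fold change of 0.06 ± 0.05 in TACI short was not called. That call depends on the scaling, since with library totals alone the value was 0.19 (adjusted p = 0.000822).

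All 3 tested genes of membrane restriction rose in TACI short (100%, against 31.5% of all genes). BST2, which tethers budding virus to the cell, had 131, 125 and 132 CPM in TACI short libraries, 114, 108 and 108 CPM in TACI long libraries and 93.7, 88.6 and 90.5 CPM in parental libraries, with no overlap. It rose by 0.38 ± 0.05 in TACI short and by 0.28 ± 0.05 in TACI long. TACI short against TACI long was not called for BST2 (0.10 ± 0.05, adjusted p = 0.0563). IFITM2 and IFITM3 encode membrane proteins that block virus entry. IFITM2 averaged 16.1 ± 1.02, 13.9 ± 0.611 and 9.96 ± 0.199 CPM in TACI short, TACI long and parental libraries (SD, n = 3 each), and rose by 0.56 ± 0.07 and 0.48 ± 0.07 in the introduced lines. IFITM3 had 1.82, 2.85 and 2.84 CPM in TACI short, 1.84, 1.58 and 1.34 CPM in TACI long and 1.28, 1.08 and 1.20 CPM in parental libraries. It rose by 0.94 ± 0.19 in TACI short (adjusted p = 0.000171), but with replicate 1 as the only TACI short library the value was 0.53 ± 0.25 and not called. IFITM1 was untested at 0.0225 to 0.0744 CPM in TACI short and 0 to 0.0230 CPM elsewhere. The IFITM genes resemble each other, and IFITM1 and IFITM2 share exon bases (22.8% of those of IFITM2), so reads may have been split or lost between them.

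The MX and GBP genes encode large GTPases that attack virus particles or the membranes around pathogens. MX1 had 1.22, 1.76 and 1.84 CPM in TACI short libraries, 3.40, 4.21 and 3.71 CPM in TACI long libraries and 1.89, 1.88 and 2.21 CPM in parental libraries. It rose by 0.92 ± 0.16 in TACI long (adjusted p = 3.76e-05) and fell by 0.44 ± 0.17 in TACI short (adjusted p = 0.0234). The fall in TACI short was lost without parental replicate 3 (-0.39), without TACI short replicate 1 (-0.30, against -0.80 with that replicate alone), in DESeq2 (adjusted p = 0.0660) and with library totals alone (adjusted p = 0.120). MX2, its neighbour at chr21:41361943-41459214, had 0.428, 1.74 and 1.36 CPM in TACI short, 1.25, 1.36 and 1.32 CPM in TACI long and 0.304, 0.482 and 0.557 CPM in parental libraries. It rose by 1.55 ± 0.42 in TACI long (adjusted p = 0.00943). In TACI short its call (1.24 ± 0.42, adjusted p = 0.0239) rested on replicates 2 and 3: with replicate 1 alone the value was -0.16 ± 0.42, and the call was lost without parental replicate 1 or 2 or TACI short replicate 2 or 3 (adjusted p from 0.0720 to 0.0888).

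GBP1 had 2.07, 3.10 and 3.12 CPM in TACI short libraries, 0.780, 0.812 and 0.510 CPM in TACI long libraries and 2.96, 3.08 and 2.57 CPM in parental libraries. TACI long lay far below both other groups, which overlapped. The fall in TACI long was 2.03 ± 0.20 on the log2 scale (adjusted p = 8.45e-09), and TACI short, at -0.19 ± 0.18, was not called. With TACI short replicate 1 alone GBP1 was lower than parental by 0.56 ± 0.22 (adjusted p = 0.0350), and with replicates 2 and 3 the value was -0.04 ± 0.15 and not called. GBP2 had 0.338, 0.918 and 0.799 CPM in TACI short, 0.142, 0.154 and 0.0695 CPM in TACI long and 0.152, 0.321 and 0.257 CPM in parental libraries. It rose by 1.35 ± 0.39 in TACI short (adjusted p = 0.00493), but the value with replicate 1 alone was 0.38 ± 0.58 and not called. The log2 fold change of GBP2 in TACI long was -0.98 ± 0.49 (adjusted p = 0.105).

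The remaining members have less settled functions. EPSTI1 had 8.73, 10.04 and 9.62 CPM in TACI short libraries, 4.23, 3.51 and 3.38 CPM in TACI long libraries and 4.0, 5.21 and 4.41 CPM in parental libraries. It rose by 0.93 ± 0.11 in TACI short (adjusted p = 1.15e-07). Its call in TACI long (-0.29 ± 0.11, adjusted p = 0.0376) was lost under 5 of the 9 omissions of 1 library, those of parental replicates 2 and 3, TACI long replicates 2 and 3 and TACI short replicate 2 (values from -0.31 to -0.19), and in DESeq2. IFI35 rose by 0.89 ± 0.16 in TACI short, with 3.29, 4.69 and 4.39 CPM against 1.59, 2.23 and 2.29 CPM in parental libraries. IFI27 rose by 1.28 ± 0.37 in TACI long (adjusted p = 0.00519), with 0.473, 0.504 and 0.371 CPM against 0.196, 0.184 and 0.171 CPM in parental libraries, all low. TACI short had 0.203, 0.298 and 0.319 CPM of IFI27, and its call of 0.84 ± 0.35 below TACI long was lost in 6 of 9 omissions, those of parental replicates 1 and 3, TACI long replicates 1 and 2 and TACI short replicates 1 and 2, and in DESeq2.

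SAMD9 and SAMD9L, neighbours at chr7:93099513-93148369, encode related inhibitors of translation, and they differed in direction. SAMD9 averaged 19.7 ± 1.44, 25.7 ± 1.07 and 23.2 ± 1.90 CPM in TACI short, TACI long and parental libraries (SD, n = 3 each). It fell by 0.37 ± 0.06 in TACI short (adjusted p = 1.10e-05). Its value in TACI long, 0.15 ± 0.06 (adjusted p = 0.0417), lost the call without parental replicate 1 (0.09) or 3 or TACI long replicate 1 or 2, and in DESeq2. SAMD9L had 3.04, 4.76 and 4.67 CPM in TACI short, 2.25, 2.02 and 2.13 CPM in TACI long and 2.76, 2.96 and 2.96 CPM in parental libraries. Its call in TACI short (0.39 ± 0.15, adjusted p = 0.0256) rested on replicates 2 and 3, since the value with replicate 1 alone was -0.02, and it was lost without any 1 of the parental replicates, without TACI short replicate 2 or 3 (values from 0.30 to 0.38 over these 5 omissions) and in DESeq2. In TACI long it fell by 0.44 ± 0.15 (adjusted p = 0.0190), and the call was lost without parental replicate 3 (-0.42) or TACI long replicate 2 (-0.39) and in DESeq2.

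TACI short replicate 1 differed from replicates 2 and 3 for a small set of members. The mean of replicates 2 and 3 was at least 2-fold above replicate 1 for 6 of the 43 tested members (14.0%), against 6.76% of 16655 tested genes with a count in replicate 1. These were IFI44 (ratio 7.81), OAS2 (5.68), MX2 (3.62), IFI44L (2.96), GBP2 (2.54) and RSAD2 (2.14). Their counts in replicate 1 were low, at 3, 19, 19, 4, 15 and 14 in the same order. Untested GBP5 (7.74), IFITM1 (2.98), GBP4 (2.56) and HERC5 (2.56) did the same, also at low levels, and XAF1 had no count in replicate 1. IFIT1 (1.99) and IFI6 (1.97) lay just under that size. The median ratio over the 43 members was 1.13, against 0.997 over all these genes. The same 2 libraries held the higher myeloid marker sums given above.

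OAS2, the third gene of the OAS cluster at chr12:112906777-113011723, had 0.428, 2.6 and 2.26 CPM in TACI short libraries, 1.63, 1.71 and 1.55 CPM in TACI long libraries and 1.96, 2.73 and 2.4 CPM in parental libraries. Replicates 2 and 3 of TACI short lay within the parental range, and replicate 1 was far below every other library. Against parental, OAS2 had a log2 fold change of -2.55 ± 0.31 with replicate 1 alone, -0.12 ± 0.16 with replicates 2 and 3 and -0.56 ± 0.54 with all 3, the last not called. Against TACI long the direction depended on this library, with -2.03 ± 0.32 for replicate 1 alone and 0.41 ± 0.17 (adjusted p = 0.0356) for replicates 2 and 3. All TACI long libraries lay below all parental libraries, but TACI long against parental was not called for OAS2 (-0.53 ± 0.55, adjusted p = 0.481). With TACI short replicate 1 left out of the fit, that value was -0.52 and called (adjusted p = 0.00526). IFI6, a mitochondrial and endoplasmic reticulum protein, had 8.21, 16.5 and 15.9 CPM in TACI short, 9.43, 10.3 and 9.15 CPM in TACI long and 7.26, 8.08 and 8.47 CPM in parental libraries. With all 3 libraries IFI6 was not called (0.63 ± 0.24, adjusted p = 0.0612), while with replicates 2 and 3 it rose by 0.88 ± 0.08 (adjusted p = 6.88e-12). In TACI long against parental IFI6 was not called (0.28 ± 0.25, adjusted p = 0.408). With TACI short replicate 1 left out of the fit, IFI6 was higher in TACI long by 0.29 (adjusted p = 0.00149).

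IFI44 was at 0.0675, 0.694 and 0.359 CPM in TACI short, 0.284, 0.219 and 0.185 CPM in TACI long and 0.152, 0.298 and 0.0643 CPM in parental libraries. It was not called with all 3 TACI short libraries (0.97 ± 0.66), and with replicates 2 and 3 it was higher by 1.44 ± 0.45 (adjusted p = 0.00591). Its neighbour IFI44L had 0.0900, 0.273 and 0.260 CPM in TACI short, 0.213, 0.285 and 0.278 CPM in TACI long and 0.348, 0.390 and 0.279 CPM in parental libraries. It was not called with all 3 libraries, and with replicate 1 alone it was lower by 1.96 ± 0.70 (adjusted p = 0.0191). GBP5 and GBP4 passed the filter once replicate 1 was left out, with 0.0675, 0.546 and 0.499 CPM of GBP5 in TACI short against 0.0918 to 0.109 CPM in parental libraries. Their log2 fold changes were then 2.16 ± 0.46 and 1.78 ± 0.50.

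**Figure D3:**
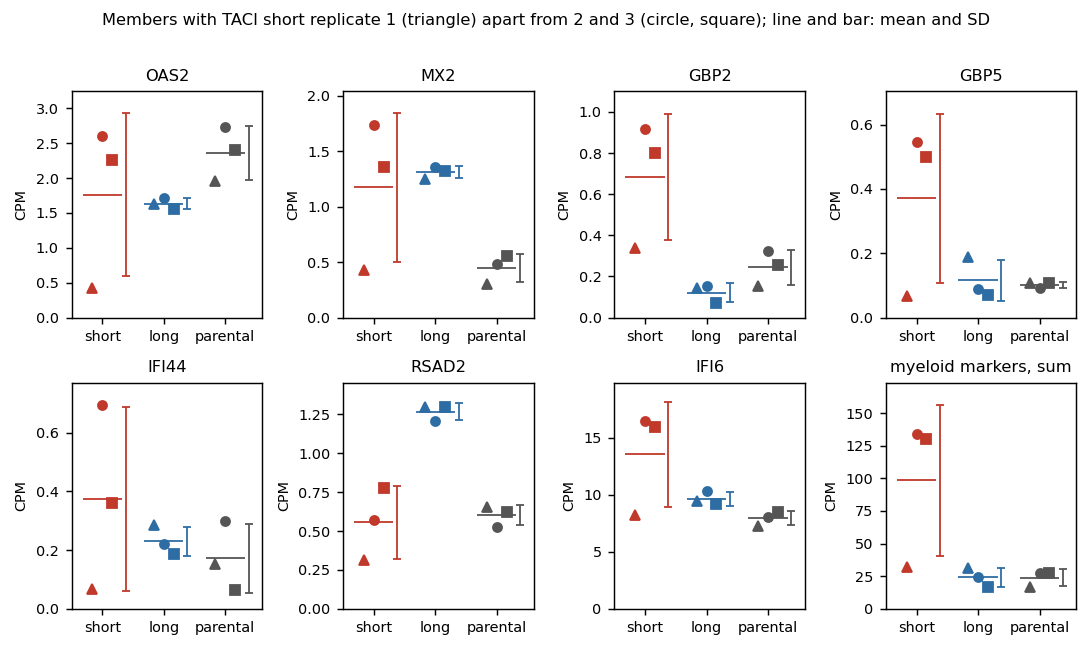
Level in CPM (linear axis from 0) of 7 interferon-stimulated genes and summed CPM of 18 myeloid markers in each library, with replicate 1 as a triangle and replicates 2 and 3 as circle and square, and the mean and SD of each group of 3. In TACI short the triangle lies below the circle and square in every panel, as for OAS2 at 0.428 CPM against 2.6 and 2.26 CPM.

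Counts of calls shifted with this choice. With replicate 1 as the only TACI short library, 17 members (39.5%) were higher than parental, against 27% of all genes, and 13 (30.2%) were lower, against 24.8%. Of the 23 members higher with all 3 libraries, 17 were higher here too, and all 9 lower members were lower again. With replicates 2 and 3, 27 of 45 tested members (60%) were higher, against 34.6% of all genes, and 8 (17.8%) were lower, against 32%. The median log2 fold change of the members was 0.10 with replicate 1 alone and 0.50 with replicates 2 and 3, against 0.01 and 0.02 over all genes. Against TACI long, 17 members (39.5%) were higher and 14 (32.6%) lower with replicate 1 alone, against 30.6% and 28.7% of all genes, and 26 (57.8%) and 10 (22.2%) with replicates 2 and 3, against 38.4% and 34.3%. The fit with replicate 1 alone takes the spread of that library to be like that of the other groups.

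Against parental, 25 members, 17 higher and 8 lower, were called in the same direction in each of these 3 ways of taking the TACI short libraries. For 22 of them the log2 fold change with replicate 1 alone lay within 0.18 of that with replicates 2 and 3. The other 3 differed by more than 0.3, namely IFIT1 and IFIT5 with the values given above and IFI35, at 0.60 ± 0.20 with replicate 1 alone and 1.00 ± 0.15 with replicates 2 and 3. Values of 10 of the 22 follow. With replicate 1 alone the log2 fold changes against parental were 1.22 ± 0.07 for OAS3, 1.09 ± 0.05 for PARP14, 1.00 ± 0.06 for IFIH1, 0.95 ± 0.05 for PARP9, 0.82 ± 0.09 for TRIM22 and 0.76 ± 0.06 for IRF1. With replicates 2 and 3 they were 1.31 ± 0.06, 1.01 ± 0.05, 0.93 ± 0.05, 0.84 ± 0.04, 0.75 ± 0.08 and 0.69 ± 0.05 in the same order. USP18 gave 1.55 ± 0.39 and 1.72 ± 0.30, DHX58 gave 1.01 ± 0.29 and 1.19 ± 0.22, ISG15 gave -0.43 ± 0.06 and -0.52 ± 0.05, and TRIM25 gave -0.45 ± 0.05 and -0.56 ± 0.04.

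Per length, the members spanned a wide range. TPM divides each count by gene length and scales these rates to the same sum in every library. In TPM, BST2 was highest in every group. It had 415 ± 10.9 in TACI short, 334 ± 5.85 in TACI long and 284 ± 8.61 in parental cells (SD, n = 3 each). ISG15 came next, at 153 ± 3.45, 212 ± 1.77 and 191 ± 11.3 TPM in the same order. In parental cells TRIM25 (60.1 ± 1.01 TPM) and DTX3L (58.8 ± 2.50 TPM) followed and did not differ beyond their spread, whereas in TACI short cells DTX3L (90.8 ± 3.47 TPM) stood above TRIM25 (47.1 ± 1.13 TPM) and in TACI long cells below it (39.7 ± 0.781 against 86.05 ± 3.68 TPM). A mean of 10 TPM or more was reached by 17 members in TACI short, 15 in TACI long and 15 in parental cells, and 18, 21 and 18 members were under 1 TPM. Members differed widely here. IFIT1, MX1, RSAD2, IFI44 and IFI44L were all under 2 TPM in each group mean. IFI6 averaged 56.1 ± 19.0, 37.8 ± 2.74 and 32.1 ± 2.31 TPM in TACI short, TACI long and parental cells, and BST2 and ISG15 were higher still.

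**Figure D4:**
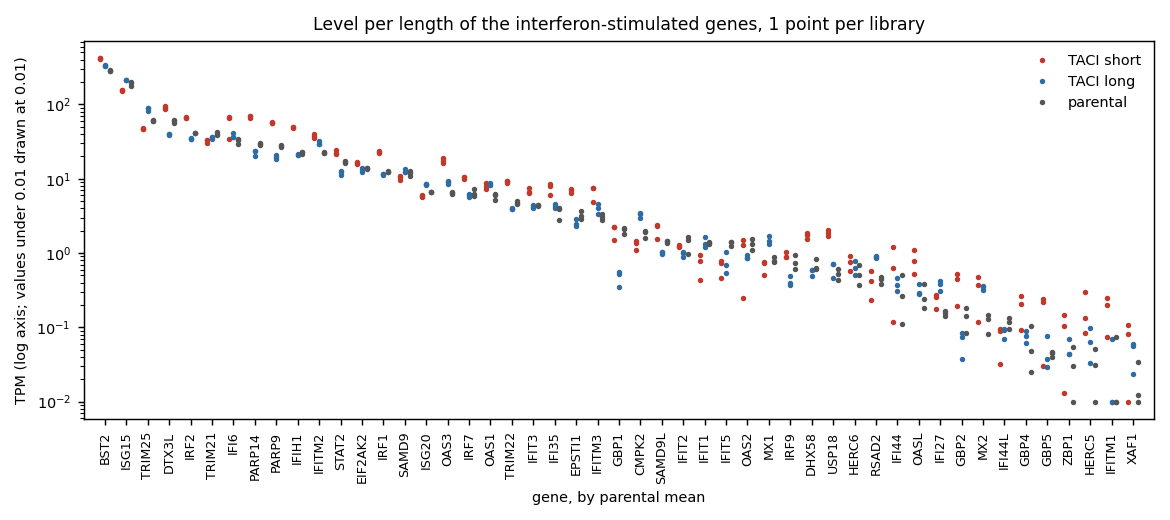
Level per length (TPM, log axis) of each of the 49 interferon-stimulated genes in the 9 libraries, ordered by the parental mean, with TACI short (red) left of TACI long (blue) and parental (grey). BST2 is highest in every group, and the spread between libraries widens below about 1 TPM.

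Promoter letters were compared with the calls in windows of 300 bases, from 250 before to 50 after each RefSeq start on GRCh38.p14. Windows existed for 36 of the 49 members. A response-element core, GAAANNGAAA on either strand, was in 26 of these 36 members, in 30 of their 46 windows (65.2%) and in 3.57% of all 35116 windows. In TACI short against parental it was found in 9 of 14 higher, 7 of 9 lower and 7 of 9 members not called. The gamma-activated-site core, TTCNNNGAA, which reads alike on both strands, was in 10 of 36 members, in 11 of their 46 windows (23.9%) and in 7.66% of all windows. It was in 6 of 14 higher members, BST2, EPSTI1, IFI35, IRF1, OAS1 and PARP14, in 1 of 9 lower members, MX1, and in 2 of 9 members not called. A kB-type core, GGGANNTTCC on either strand, was in 3 members, GBP4, IFIH1 and OAS3, in 3 of the 46 windows (6.52%) and in 1.61% of all windows. Other forms of kB site were not searched, so members without this core may still hold one. These numbers are small and were not tested.

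The 250 bases before the start are shown for 3 members that rose in TACI short, OAS3 (chr12:112938224-112938473, plus strand), IFIH1 (chr2:162318685-162318934, minus strand) and IRF1 (chr5:132490774-132491023, minus strand), for 2 that fell, ISG15 (chr1:1013247-1013496, plus strand) and IFIT1 (chr10:89392373-89392622, plus strand), and for RSAD2 (chr2:6877527-6877776, plus strand), which rose in TACI long. They are shown because response-element letters preceded genes of either direction and because OAS3 and IFIH1 also held a match to the kB-type core searched. Sequences are from RefSeq on GRCh38.p14, 5′ to 3′ on the strand of the gene, and capitals mark matches to any of the 3 cores, some of which overlap.
OAS3: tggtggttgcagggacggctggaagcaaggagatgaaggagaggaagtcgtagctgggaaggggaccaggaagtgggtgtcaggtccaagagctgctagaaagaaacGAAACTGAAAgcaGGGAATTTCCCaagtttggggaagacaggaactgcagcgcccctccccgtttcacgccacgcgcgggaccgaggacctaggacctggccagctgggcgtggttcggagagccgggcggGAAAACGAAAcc
IFIH1: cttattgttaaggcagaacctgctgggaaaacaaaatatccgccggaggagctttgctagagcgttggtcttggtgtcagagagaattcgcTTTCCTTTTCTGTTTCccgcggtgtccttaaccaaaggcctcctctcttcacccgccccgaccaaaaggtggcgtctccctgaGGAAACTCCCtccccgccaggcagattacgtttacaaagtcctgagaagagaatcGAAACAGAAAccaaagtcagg
IRF1: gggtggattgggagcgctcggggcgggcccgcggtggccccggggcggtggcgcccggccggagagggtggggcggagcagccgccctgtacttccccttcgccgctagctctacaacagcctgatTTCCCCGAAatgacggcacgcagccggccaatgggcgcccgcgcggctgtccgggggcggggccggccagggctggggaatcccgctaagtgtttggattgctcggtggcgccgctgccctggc
ISG15: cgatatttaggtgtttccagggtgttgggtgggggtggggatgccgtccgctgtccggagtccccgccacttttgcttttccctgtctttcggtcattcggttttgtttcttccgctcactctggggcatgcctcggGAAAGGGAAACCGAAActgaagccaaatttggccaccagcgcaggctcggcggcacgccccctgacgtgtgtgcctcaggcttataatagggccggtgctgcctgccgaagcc
IFIT1: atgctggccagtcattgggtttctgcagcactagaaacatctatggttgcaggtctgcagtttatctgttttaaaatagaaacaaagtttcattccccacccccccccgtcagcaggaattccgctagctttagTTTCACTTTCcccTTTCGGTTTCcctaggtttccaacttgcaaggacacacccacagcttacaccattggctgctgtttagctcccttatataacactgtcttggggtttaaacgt
RSAD2: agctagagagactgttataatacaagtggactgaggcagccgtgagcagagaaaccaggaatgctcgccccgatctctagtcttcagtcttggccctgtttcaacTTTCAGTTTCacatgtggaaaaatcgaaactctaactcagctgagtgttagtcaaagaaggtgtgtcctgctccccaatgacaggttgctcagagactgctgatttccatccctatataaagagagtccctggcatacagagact
In OAS3 a kB-type match on each strand overlaps the other, and both lie after the first response-element match. IRF1 has a gamma-activated-site match and no response-element match in this stretch. Its letters ggggaatccc resemble the kB-type core but differ from the form searched, so they are not in capitals. ISG15 has a pair of overlapping response-element matches.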

How the data were processed

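The authors deposited raw counts per gene for each library, without normalization, per the file headers; their columns are laid out as featureCounts writes them. Per the submitters' processing notes the tools were FastQC, STAR 2.4.0h and HTSeq on hg38. The annotation release and strand setting are not given in the sources used here, and Nextera XT libraries do not keep the strand, so overlapping and antisense genes cannot be told apart. CPM is the count over its library's total, and TPM was computed from the deposited lengths.

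Genes were kept by filterByExpr (minimum count 10, minimum total 15) and fitted over all 9 libraries with TMM factors in edgeR 4.0.16 (R 4.3.3), using its quasi-likelihood test in robust mode and group as the only term (common biological coefficient of variation 0.0792; residual degrees of freedom, 6), with Benjamini-Hochberg adjustment over 16672 genes. TMM factors ran from 0.962 to 1.10 and were highest in TACI short, so printed CPM give larger ratios for TACI short than the fitted folds. Standard errors are the absolute log2 fold change over the square root of its F statistic, and are approximate. The fit was tested on simulated data. Alternatives were DESeq2 1.42.0, other scalings and filters, only the groups compared, a replicate block and each library left out. No library copied another: between replicates, chi-square over its degrees of freedom was 2.31 to 16.2. The reads carry no molecular identifiers, so counts are not counts of molecules.

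The members, role lists and tests were chosen with earlier results of these data known. Values per library are given for members with a called change of at least 2-fold or with TACI short replicate 1 apart, and for those needed to describe a role. TREX1, listed among the sensing genes, is at 0 in all libraries and shares its exons with another gene. 1 gene of the signalling lists is not reported here.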

Additional observations from a re-analysis of the deposited data

How the results depend on the processing

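Over the members and settings tried, 723 of the TACI short against parental values kept direction and side of the threshold, 13 gained and 24 lost the call and 6 changed sign; the numbers were 721, 8, 31 and 5 for TACI long against parental and 710, 18, 23 and 16 for TACI short against TACI long. In 4 of the sign changes the value was called under 1 of the 2 settings, and these 4 came with TACI short replicate 1 alone or left out. With it alone, MX2 (-0.156) and SAMD9L (-0.0196) turned negative against parental and IFI6 (-0.331) against TACI long, and OAS2 against TACI long ran from -0.381 to 0.406 as single libraries were left out, called and positive without TACI short replicate 1. The other sign changes were between values not called. With TACI short replicate 1 alone, IFI6 (-0.0406) and IFI44 (-1.38) were negative against parental, and HERC6 (-0.349) and IFI44 (-1.82) against TACI long. OAS2 against TACI long was 0.0688 with upper-quartile factors, 0.111 with library totals alone and 0.0172 with at least 1 CPM in 3 libraries, and HERC6 was -0.0136 in DESeq2 and -0.00256 without a filter. With single libraries left out, RSAD2 ran from -0.577 to 0.0310 and IRF9 from -0.0137 to 0.286 in TACI short against parental. In TACI long against parental, IFIT1 ran from -0.0734 to 0.150, IFIT3 from -0.0430 to 0.00465 and IRF7 from -0.133 to 0.0411. In TACI short against TACI long, MX2 ran from -0.654 to 0.0653, HERC6 from -0.174 to 0.157 and IFI44 from -0.180 to 0.998.

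The 7 members at least 2-fold higher in TACI short than parental became 12 with library totals alone, 4 with a filter of at least 1 CPM in 3 libraries, and 6 to 12 when single libraries were left out. With TACI short replicate 1 alone, OASL, GBP2 and MX2 of these 7 had log2 fold changes of 0.84, 0.38 and -0.16, under 2-fold. OAS3, USP18, DHX58 and PARP14 had 1.22, 1.55, 1.01 and 1.09 there, and IFIH1, not among the 7 members, had 1.00. The 2 at least 2-fold lower became 1 with upper-quartile factors, 1 with library totals alone, 5 with TACI short replicate 1 alone, and 1 to 2 without single libraries. The 11 members lower in TACI long became 7 in DESeq2 and 7 to 12 without single libraries (7 without TACI long replicate 2), and the 1 at least 2-fold lower became 1 to 2. The cause was not tested.

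Library totals alone moved the median log2 fold change of all genes by 0.13 in TACI short against both other groups. The share of called genes that were higher than parental was then 64.6%, and 59.3% with upper-quartile factors, against 5256 higher and 5179 lower genes with TMM; members were 25 higher and 8 lower under both. Against TACI long the shares were 62.4% and 58.8%, with 24 members higher under both and 9 and 10 lower.

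Correlations of same-numbered deviations ran from -0.272 to 0.434, and those of different numbers from -0.389 to 0.346. Between parental and TACI short the same-numbered values were 0.434, 0.213 and 0.177. Deviations within a group of 3 constrain one another, so this check cannot settle whether the replicate numbers pair the libraries. With the replicate number as a block, 23 and 9 members were higher and lower in TACI short against parental, 13 and 11 in TACI long against parental, and 22 and 11 in TACI short against TACI long, where BST2 gained a call. Depth limits members under 1 CPM, whose standard errors reached 0.70.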
